A study of Mus musculus with 4 samples.

Results

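The 10 genes described here belong to the connective tissue cells and microfibrils of muscle. They were followed in RNA-seq libraries of quadriceps, the large muscle of the thigh, from mice with and without a functional vitamin D receptor. They were named by symbol and found through their Ensembl gene IDs, and all 10 of 10 were present among the 55573 gene IDs of the count files. For what they mark or build 8 were taken, namely Pdgfra, Ly6a, Dpp4, Pi16, Dcn, Lum, Fbn1 and Mfap5. Mfap4 and Ccn3 were chosen on their lower counts in the knockout libraries of this same comparison, so their difference between the genotypes is described here with no test.

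The knockout group held 2 libraries from B6.129S4-Vdrtm1Mbd/J mice (genotype vdr-/-) and the wild-type (WT) group 2 libraries from C57BL/6J mice, all sampled at 7 weeks of age and kept on ordinary chow and water. In the knockout strain the receptor is disrupted in every tissue and from conception, and the allele was made in cells of a 129 substrain and then crossed into the C57BL/6 background. The labels number the libraries of each genotype 1 and 2 and do not say whether they came from separate animals. A p-value here therefore weighs genotype against library-to-library spread, which may not be spread between animals. The design sets muscle RNA of mice that lack the receptor throughout the body against muscle RNA of WT mice.

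Fibro-adipogenic progenitors are the resident mesenchymal cells that lie between muscle fibres. They are known to secrete much of the muscle matrix, to nourish satellite cells during repair, and to turn into fat cells or scar-forming fibroblasts when muscle degenerates. Microfibrils are the fibrillin threads that carry elastin and hold latent TGF-beta in the matrix, and proteins such as Mfap4 and Mfap5 bind along them. Vitamin D acts through its receptor, a nuclear receptor that pairs with the retinoid X receptor on DNA.

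Total counts were 21336982 and 11206474 in knockout replicates 1 and 2 and 10789025 and 13031553 in WT replicates 1 and 2. Vdr itself had 5 and 1 counts in the knockout libraries and 5 and 0 in WT, too few to check the labels, and the allele removes only a part of the gene. Sex-linked genes set the groups apart. Xist, the RNA that silences an X chromosome in female cells, stood at 0 and 0.256 CPM in the knockout libraries and at 183 and 217 CPM in WT. The Y-linked helicase gene Ddx3y stood at 75.8 and 63.0 CPM in the knockout libraries, against 4.74 CPM in WT replicate 1 and 0 in WT replicate 2. WT replicate 1 thus held both Xist and some Y-linked RNA. Genotype and sex cannot be told apart for any difference described here. In whole muscle, fewer cells of a type and less RNA per cell also cannot be told apart.

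Values are CPM (counts relative to library size, so that libraries of any depth compare) after TMM scaling, which trims the extreme genes, and log2 fold changes are knockout over WT ± standard error from edgeR's quasi-likelihood fit of all 13076 genes that passed the filter on low counts. A gene was called where its p, adjusted by Benjamini and Hochberg over all 13076, was below 0.05. All 10 genes passed the filter. Among the 10, 2 were called lower and none higher, where 0.413% of all tested genes were called lower, 1.61% higher and 2.03% either way. The 2 were Mfap4 and Ccn3, and because their fall is what chose them nothing is read from that count. In the other 8 the adjusted p lay between 0.0833 and 0.951. Both knockout libraries lay below both WT libraries for 4 of these 8, above them for 2, and overlapped with them for 2. Over all tested genes the knockout libraries lay below in 21.7% and above in 23.0%. The median log2 fold change of the 8 was -0.41, against -0.0007 for all tested genes.

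**Figure D1:**
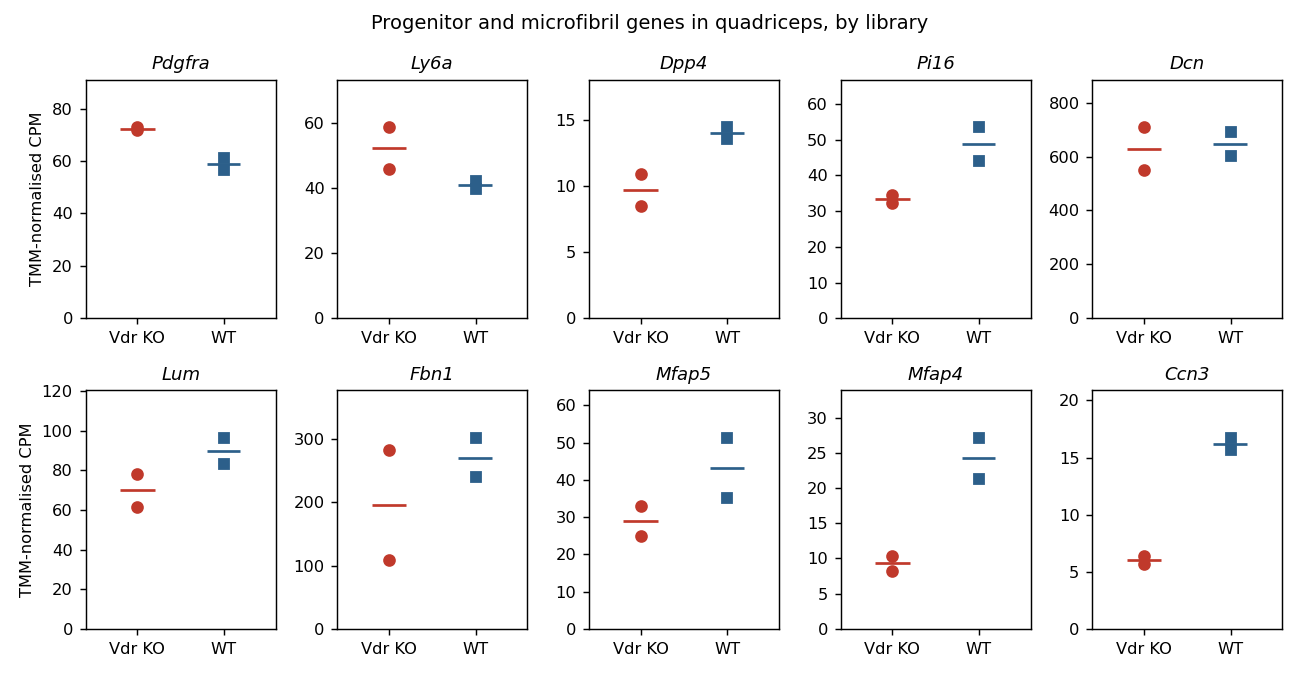
TMM-normalised CPM of the 10 genes (vertical axis, linear and starting at 0) in the knockout libraries (red circles, left) and WT libraries (blue squares, right), with a bar at the mean of each group. Mfap4 stood at 10.3 and 8.27 CPM in the knockout and at 21.3 and 27.1 CPM in WT, while Dcn overlapped between the groups and Fbn1 differed between the knockout libraries.

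Set against exon length, the 10 genes covered a wide range of levels. Dcn was the highest in both groups, at 107.6 CPM per kb of exon in the knockout and 110.5 in WT, and ranked at the 98.6th percentile of tested genes over all 4 libraries. Dpp4 was the lowest, at 1.53 CPM per kb in the knockout and 2.21 in WT, at the 47.6th percentile. Between them in the knockout came Ly6a (43.3 CPM per kb), Lum (28.5), Fbn1 (16.2), Mfap5 (8.07), Pdgfra (7.21), Pi16 (5.24), Mfap4 (4.83) and Ccn3 (2.11). In WT the order was Lum (36.7 CPM per kb), Ly6a (34.0), Fbn1 (22.3), Mfap4 (12.6), Mfap5 (12.04), Pi16 (7.65), Pdgfra (5.87) and Ccn3 (5.64). Mfap4 ranked 8 of 10 in the knockout and 5 of 10 in WT, but it was chosen for its fall, so nothing is read from that shift. Among the genes not so chosen, Lum and Ly6a changed places between the groups, as did Pi16 and Pdgfra. Neighbours whose libraries overlapped were Fbn1 with Mfap5, Mfap5 with Pdgfra, and Pi16 with Mfap4 in the knockout. In WT they were Lum with Ly6a, Mfap4 with Mfap5, and Pdgfra with Ccn3. Exon length was taken over all annotated transcripts, which understates the level per kb of a gene whose main transcript is short.

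The receptor and surface proteins of the progenitors did not move as a block. Pdgfra encodes the receptor for platelet-derived growth factor by which these cells are usually isolated (ENSMUSG00000029231, chromosome 5, 75152292 to 75198215, GRCm38). It stood at 71.8 and 72.8 CPM in the knockout libraries and at 56.4 and 61.3 CPM in WT. Both knockout libraries were the higher and the groups did not overlap, but the difference was not called (0.30 ± 0.12, edgeR adjusted p = 0.29). Ly6a encodes Sca-1, a lipid-anchored surface protein that marks mouse progenitors and also endothelial cells (ENSMUSG00000075602, chromosome 15, 74994877 to 74998031). It stood at 58.6 and 45.7 CPM in the knockout libraries and at 42.3 and 39.6 CPM in WT, again with no overlap and no call (0.35 ± 0.14, edgeR adjusted p = 0.299). Ly6a has close relatives in the same cluster, among which reads may be split. Ly6c1, one of them and an endothelial marker, stood at 56.3 and 39.1 CPM in the knockout libraries and 44.5 and 43.3 CPM in WT, and these overlapped.

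Pi16 and Dpp4 mark the subset of fibroblasts that is found across many tissues and counted as a reservoir for other fibroblasts, and both stood on the other side of WT from Pdgfra. Pi16, a secreted peptidase inhibitor (ENSMUSG00000024011, chromosome 17, 29317680 to 29330593), had 32.2 and 34.5 CPM in the knockout libraries and 44.0 and 53.5 CPM in WT. Its groups did not overlap and the difference came closest to a call among the 8 (-0.55 ± 0.14, edgeR adjusted p = 0.0833). It was called without WT replicate 1 (-0.68, edgeR adjusted p = 0.0451), and not without WT replicate 2 (-0.40, edgeR adjusted p = 0.346). Dpp4, a membrane dipeptidase that trims hormones and chemokines (ENSMUSG00000035000, chromosome 2, 62330073 to 62412231), had 8.46 and 10.9 CPM in the knockout libraries and 13.6 and 14.4 CPM in WT. Both knockout libraries were the lower, with no call (-0.54 ± 0.18, edgeR adjusted p = 0.179).

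The ratio of these genes within a library does not depend on how libraries are scaled. There were 449 and 474 Pi16 counts per 1000 Pdgfra counts in the knockout libraries, against 780 and 873 in WT. For Dpp4 there were 118 and 150 counts per 1000 Pdgfra counts in the knockout libraries, against 240 and 236 in WT. Both ratios were lower in each knockout library than in either WT library. The comparison of these ratios was chosen with the levels known and carries no test.

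Promoter sequences of these 3 surface genes are shown because their levels stood on opposite sides of WT. Of the 10 genes, 4 had an entry in the RefSeq promoter table on GRCm38.p6 (Pdgfra, Dpp4, Pi16 and Fbn1), and Ly6a, Dcn, Lum, Mfap5, Mfap4 and Ccn3 had none. Each run below gives the 250 bases before the RefSeq transcription start, 5′ to 3′ on the strand of the gene, with matches to the searched motifs in capitals. For Pi16 the RefSeq start lies inside the GENCODE gene, which begins further upstream. For Pdgfra the RefSeq start lies upstream of the GENCODE gene, and the bases that follow it were found in no GENCODE transcript of Pdgfra.
Pi16 (chr17:29318632-29318881, plus strand): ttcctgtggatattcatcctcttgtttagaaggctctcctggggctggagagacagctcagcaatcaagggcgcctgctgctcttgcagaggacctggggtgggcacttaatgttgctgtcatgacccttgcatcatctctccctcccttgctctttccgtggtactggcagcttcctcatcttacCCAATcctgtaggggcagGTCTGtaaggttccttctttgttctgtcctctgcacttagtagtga
Dpp4 (chr2:62412232-62412481, minus strand): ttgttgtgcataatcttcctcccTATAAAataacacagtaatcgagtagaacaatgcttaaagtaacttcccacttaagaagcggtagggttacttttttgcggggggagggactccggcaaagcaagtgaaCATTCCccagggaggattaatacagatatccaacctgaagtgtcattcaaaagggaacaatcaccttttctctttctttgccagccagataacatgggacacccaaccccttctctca
Pdgfra (chr5:75152001-75152250, plus strand): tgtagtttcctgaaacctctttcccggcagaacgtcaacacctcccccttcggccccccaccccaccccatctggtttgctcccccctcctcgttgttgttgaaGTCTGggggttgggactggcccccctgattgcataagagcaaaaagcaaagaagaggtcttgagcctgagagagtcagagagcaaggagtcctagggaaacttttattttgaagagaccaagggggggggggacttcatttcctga
The motifs, searched on both strands, were TATAAA (a core promoter box), GGGCGG (which binds Sp1), CCAAT (which binds NF-Y), AGGTCA (a half-site of the vitamin D receptor), AGTTCA (another form of that half-site), TGANTCA (AP-1), GGAATG (TEAD) and CAGAC (SMAD), and none of these overlapped another in the 3 runs. The Pi16 run held a CCAAT match that starts 64 bases before the start site, and the Pi16 and Pdgfra runs each held a SMAD match on the opposite strand. The Dpp4 run held a TATAAA match 227 bases before the start site and a TEAD match on the opposite strand. Over all 32851 promoter windows, 33.8% held CCAAT, 42.2% CAGAC, 12.4% TATAAA and 12.6% GGAATG. Neither half-site, found in 14.0% (AGGTCA) and 11.8% (AGTTCA) of all windows, was among the letters of the 3 runs.

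Decorin and lumican, the small leucine-rich proteoglycans that coat collagen fibrils, lie next to each other on chromosome 10. Dcn, which also binds TGF-beta (ENSMUSG00000019929, 97479609 to 97518143), had 708 and 549 CPM in the knockout libraries and 689 and 601 CPM in WT. The groups overlapped (-0.04 ± 0.16, edgeR adjusted p = 0.951). Lum, which governs the spacing of fibrils (ENSMUSG00000036446, 97565128 to 97572703), had 78.1 and 61.6 CPM in the knockout libraries and 83.4 and 96.2 CPM in WT. Here both knockout libraries were the lower, with no call (-0.36 ± 0.15, edgeR adjusted p = 0.293). Within libraries there were 110.3 and 112 Lum counts per 1000 Dcn counts in the knockout, against 121 and 160.1 in WT.

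Of the microfibril genes not chosen for their fall, Fbn1 overlapped between the groups, and Mfap5 did not overlap but was not called. Mfap4 was chosen for its fall. Fbn1, fibrillin-1, the backbone of the microfibril (ENSMUSG00000027204, chromosome 2, 125300594 to 125507993), had 109.8 and 283 CPM in the knockout libraries and 239.9 and 302 CPM in WT. Knockout replicate 1 lay far below the other 3 libraries, and knockout replicate 2 lay among the WT values, so the error was wide (-0.47 ± 0.62, edgeR adjusted p = 0.839). Without knockout replicate 1 the log2 fold change was 0.06 (edgeR adjusted p = 0.937), and without knockout replicate 2 it was -1.30 and called (edgeR adjusted p = 0.0109). Of 6289 tested genes with a mean of at least 10 CPM and a known exon length, 7 (0.111%), Fbn1 included, were as low or lower in knockout replicate 1 relative to replicate 2. Counting both directions, 26 genes were as far apart. The median log2 ratio of knockout replicate 1 over replicate 2 was -0.04 for genes with under 2 kb of exon and 0.02 for those over 12 kb. The antisense gene Gm9913, which shares 20.1% of the Fbn1 exon sequence, had at most 2 counts in any library. Whether reads in the shared sequence were counted for either gene was not tested.

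Mfap5, a small glycoprotein that binds fibrillin (ENSMUSG00000030116, chromosome 6, 122505845 to 122529290), had 25.0 and 32.9 CPM in the knockout libraries and 35.3 and 51.2 CPM in WT. Both knockout libraries were the lower, and the WT libraries differed from each other by 1.45 times. The difference was not called (-0.59 ± 0.20, edgeR adjusted p = 0.218), was called without WT replicate 1 (-0.83, edgeR adjusted p = 0.0255), and shrank to -0.29 without WT replicate 2 (edgeR adjusted p = 0.62).

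Mfap4, a fibrinogen-domain protein that binds collagen, elastin and fibrillin (ENSMUSG00000042436, chromosome 11, 61485431 to 61488900), had 217 and 97 raw counts in the knockout libraries and 225 and 347 in WT. In TMM CPM this was 10.3 and 8.27 in the knockout libraries and 21.3 and 27.1 in WT. The lowest WT library stood above the highest knockout library, and the fitted log2 fold change was -1.37 ± 0.18. It ran from -1.55 without knockout replicate 1 to -1.19 without WT replicate 2. Mfap4 shares 89 bases of exon (4.63% of its exon sequence) with Mapk7 on the opposite strand, which had 85 and 40 counts in the knockout libraries and 28 and 51 in WT. How reads in these shared bases were counted was not tested.

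Ccn3, a secreted matricellular protein also known as NOV (ENSMUSG00000037362, chromosome 15, 54745702 to 54754039), had 120 and 75 raw counts in the knockout libraries and 165 and 214 in WT. Scaled, these were 5.70 and 6.40 CPM in the knockout libraries and 15.6 and 16.7 CPM in WT. The libraries of each genotype lay close together and the genotypes far apart (-1.43 ± 0.17). The value ran from -1.50 without knockout replicate 2 to -1.34 without knockout replicate 1. Ccn3 and Ly6a are the members that share chromosome 15 with Vdr, at 43.1 and 22.9 Mb from it. How far DNA of the 129 donor strain extends around Vdr in these mice was not tested.

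**Figure D2:**
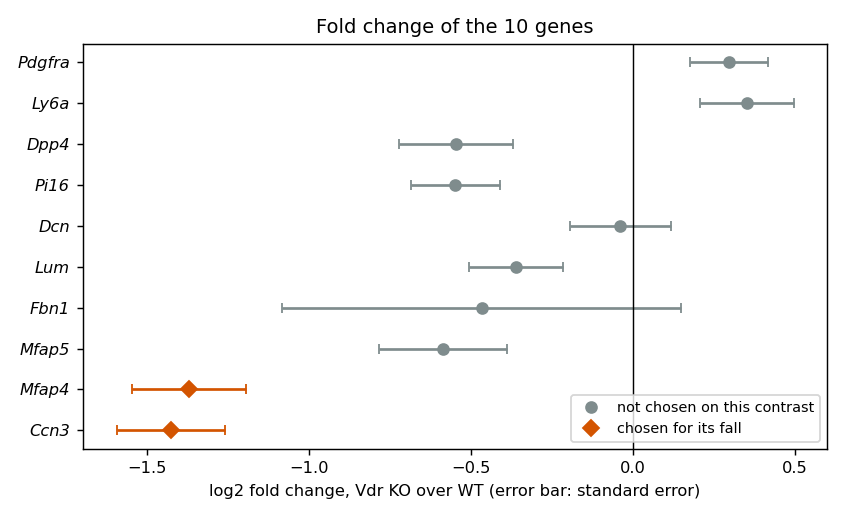
Log2 fold change, knockout over WT (horizontal axis), with its standard error from the edgeR fit for each of the 10 genes. Orange diamonds mark Mfap4 (-1.37) and Ccn3 (-1.43), which were chosen for their fall, and grey circles the other 8, which ran from -0.59 (Mfap5) to 0.35 (Ly6a).

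Mfap4 and Ccn3 can also be set against other transcripts of matrix-forming cells in the same library. Since their fall in these counts chose them, their ratio to genes that differ little or stand higher in the knockout must be lower there, and the ratios are a description with no test. There were 14.6 and 15.1 Mfap4 counts per 1000 Dcn counts in the knockout libraries, against 30.9 and 45.1 in WT. For Ccn3 there were 8.06 and 11.7 per 1000 Dcn counts in the knockout libraries, against 22.7 and 27.8 in WT. Relative to Pdgfra, Mfap4 had 144 and 114 counts per 1000 in the knockout libraries and 378 and 442 in WT. Measured against Col1a1, a chain of the main fibrillar collagen, Mfap4 had 7.97 and 6.47 counts per 1000 in the knockout libraries and 14.2 and 20.5 in WT. Against Fbn1 the picture differed. Mfap4 had 94.0 counts per 1000 Fbn1 counts in knockout replicate 1, near the 88.9 and 89.7 of WT, and 29.2 in knockout replicate 2.

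**Figure D3:**
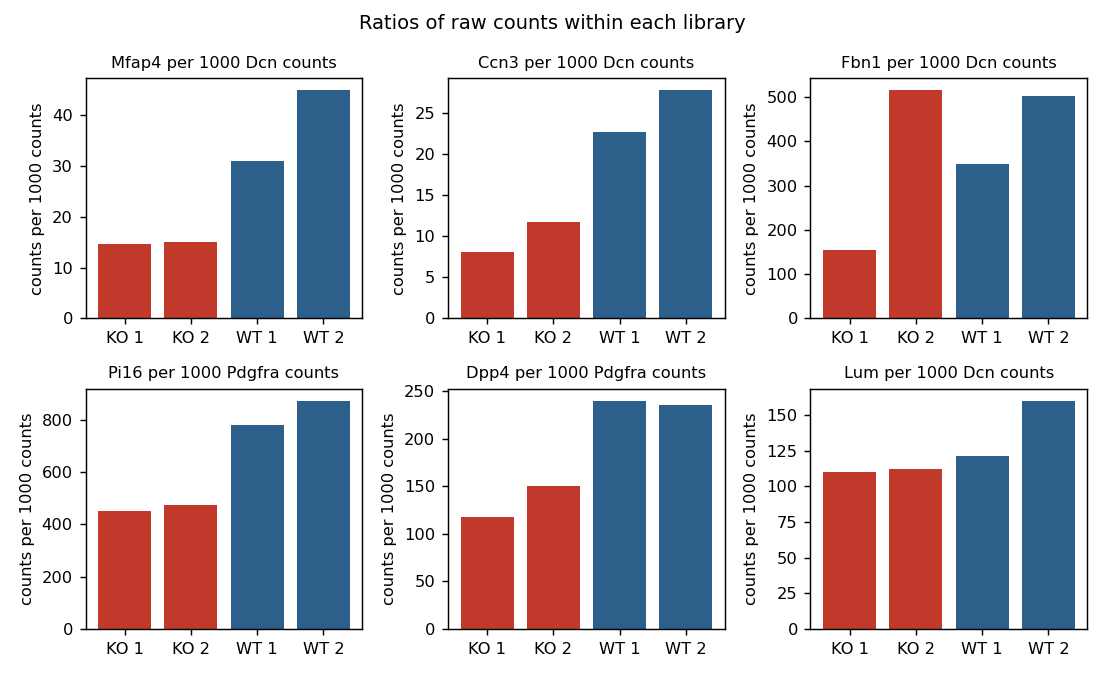
Raw counts of a gene per 1000 raw counts of another in the same library (vertical axes start at 0), for knockout libraries 1 and 2 (red, left) and WT libraries 1 and 2 (blue, right). Pi16 per 1000 Pdgfra counts was 449 and 474 in the knockout and 780 and 873 in WT, while Fbn1 per 1000 Dcn counts was 155 in knockout replicate 1 and 516 in replicate 2.

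How the 10 genes varied inside a genotype also differed. Between the knockout libraries the higher value was 1.01 times the lower for Pdgfra, 1.07 times for Pi16, 1.12 times for Ccn3 and 2.58 times for Fbn1. Between the WT libraries it ran from 1.07 times for Dpp4, Ly6a and Ccn3 to 1.45 times for Mfap5. Dcn, Lum, Ly6a and Mfap4 were higher in knockout replicate 1 than in replicate 2, while Fbn1, Mfap5, Dpp4, Ccn3 and Pi16 were lower. The summed level of the 8 genes not chosen for their fall, to which Dcn gave more than any other, was 1092.0 and 1090.3 CPM in the knockout libraries and 1204.1 and 1218.8 CPM in WT. Within the knockout sums, Dcn (708 and 549 CPM) and Fbn1 (109.8 and 283 CPM) differed in opposite directions. Each of these genes overlapped between the groups.

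**Figure D4:**
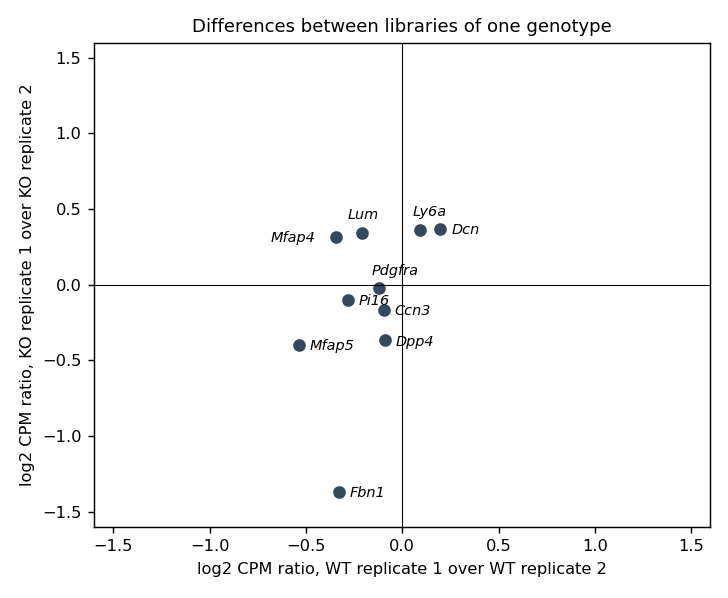
Log2 ratio of CPM between the libraries of a genotype for each of the 10 genes, WT replicate 1 over replicate 2 on the horizontal axis and knockout replicate 1 over replicate 2 on the vertical axis. Fbn1 lies apart at -1.37 on the knockout axis and at -0.33 on the WT axis.

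Further markers of the progenitors gave 1 call. Of 22 such genes, all tested, 1 was called higher and none lower. Over all tested genes 1.61% were called higher and 0.413% lower, and these shares apply to the calls of each list below. The median log2 fold change of the 22 was -0.10 (-0.19 without knockout replicate 2, -0.04 without knockout replicate 1). The called gene was Gpx3, a secreted glutathione peroxidase made by many cells, which rose to 144 and 108.7 CPM in the knockout libraries, against 64.3 and 46.0 CPM in WT (1.20 ± 0.19, edgeR adjusted p = 0.0135). The most abundant per kb were Gsn, the actin-severing protein gelsolin, at 1773 and 1747 CPM in the knockout libraries and 1489 and 1063 CPM in WT, and Dpt, the matrix protein dermatopontin, at 139.6 and 169 CPM in the knockout libraries and 145 and 157 CPM in WT. Gsn (edgeR adjusted p = 0.234) and Dpt (edgeR adjusted p = 0.958) were not called, although Gsn was called without WT replicate 1 (0.73).

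Of markers of the Pi16 and Dpp4 subset, 19 of 21 were tested, and 2 were called lower and none higher. A negative log2 fold change was found in 16 of the 19, against 6550 of all 13076 tested genes. In 11 of the 19 both knockout libraries lay below both WT libraries, and in 2 above. Over all tested genes 21.7% lay below and 23.0% above. Other lists leaned the same way, with 9 of 15 tendon markers below and 0 above, and 6 of 14 endothelial markers below and 1 above. Fat-cell and macrophage markers leaned the other way. All lists were chosen with earlier results of these data known. The median of the 19 was -0.28 and lay between -0.35 and -0.25 when 1 library was left out. Igfbp6, which binds insulin-like growth factor II, fell to 51.0 and 54.5 CPM in the knockout libraries, against 79.4 and 76.0 CPM in WT (-0.56 ± 0.12, edgeR adjusted p = 0.0433). Its call was lost when any 1 library was left out (-0.60 to -0.52). Dact2, which tunes Wnt and TGF-beta signalling, fell to 1.38 and 2.05 CPM in the knockout libraries, against 5.12 and 5.54 CPM in WT (-1.69 ± 0.29, edgeR adjusted p = 0.0144), a call lost without knockout replicate 1 (-1.38). The most abundant per kb, Igfbp5, stood at 479.6 and 420.3 CPM in the knockout libraries and 373 and 389.8 CPM in WT and was not called (edgeR adjusted p = 0.476).

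Among 32 tested genes of microfibrils and elastic fibres out of 33, 1 was called lower and none higher, 21 had a negative log2 fold change, and the median was -0.09. Without knockout replicate 1 the median was -0.02, and without knockout replicate 2 it was -0.16, with 2 genes called lower and 1 higher. Ltbp4 fell to 61.9 and 63.5 CPM in the knockout libraries, against 120.8 and 106.1 CPM in WT (-0.86 ± 0.12, edgeR adjusted p = 0.00615). Its product ties latent TGF-beta to the matrix and helps lay down elastin, and the call stayed without each library in turn. The most abundant per kb after it, Fbln2, stood at 79.0 and 76.6 CPM in the knockout libraries and 86.9 and 73.2 CPM in WT. Eln, elastin itself, stood at 21.1 and 33.7 CPM in the knockout libraries and 37.0 and 39.1 CPM in WT (edgeR adjusted p = 0.323). Mfap2, the closest relative of Mfap5, stood at 5.04 and 6.82 CPM in the knockout libraries and 3.98 and 6.32 CPM in WT. Fbn2, the other fibrillin, reached at most 2.97 CPM in any library. Eln, Mfap2 and Fbn2 were named after their values were seen.

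Small leucine-rich proteoglycans other than Dcn and Lum held no called gene among 10 tested of 14, with a median of -0.23. That median rested on single libraries, since it was -0.47 without knockout replicate 1, where 1 gene was called lower, 0.076 without knockout replicate 2, and -0.10 without WT replicate 1. Fmod stood at 203 and 144 CPM in the knockout libraries and 248 and 189 CPM in WT, and Ogn at 123 and 82.2 CPM in the knockout libraries and 99.7 and 96.0 CPM in WT, both with overlap. Of the CCN family besides Ccn3, 1 of 4 tested genes of 5 was called lower and none higher, with a median of -0.54 (-0.72 to -0.41 when 1 library was left out). Ccn2, connective tissue growth factor, fell to 33.1 and 29.4 CPM in the knockout libraries, against 64.0 and 58.1 CPM in WT (-0.96 ± 0.13, edgeR adjusted p = 0.00409), and stayed called without each library in turn. Ccn1 stood at 19.3 and 11.8 CPM in the knockout libraries and 18.1 and 11.2 CPM in WT, with overlap.

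The ligands of Pdgfra and the other PDGF receptor gave no call among 5 tested genes of the PDGF family (median -0.04, with -0.14 without knockout replicate 1, 0.11 without knockout replicate 2 and -0.08 without WT replicate 1). Pdgfrb stood at 33.5 and 30.7 CPM in the knockout libraries and 33.6 and 34.0 CPM in WT, and Pdgfb at 8.84 and 13.3 CPM in the knockout libraries and 12.1 and 10.3 CPM in WT. None of 22 TGF-beta ligands, receptors and targets was called either, with a median of -0.06 (-0.13 without knockout replicate 1, -0.03 without knockout replicate 2 or WT replicate 1). Without knockout replicate 2, 1 of them was called higher. The most abundant were the collagen genes Col1a1, at 1295 and 1278 CPM in the knockout libraries and 1497 and 1321 CPM in WT, and Col3a1, at 1663 and 2093 CPM in the knockout libraries and 1279 and 1916 CPM in WT. In the PDGF list 2 genes, and in the TGF-beta list 9, had a positive log2 fold change.

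**Figure D5:**
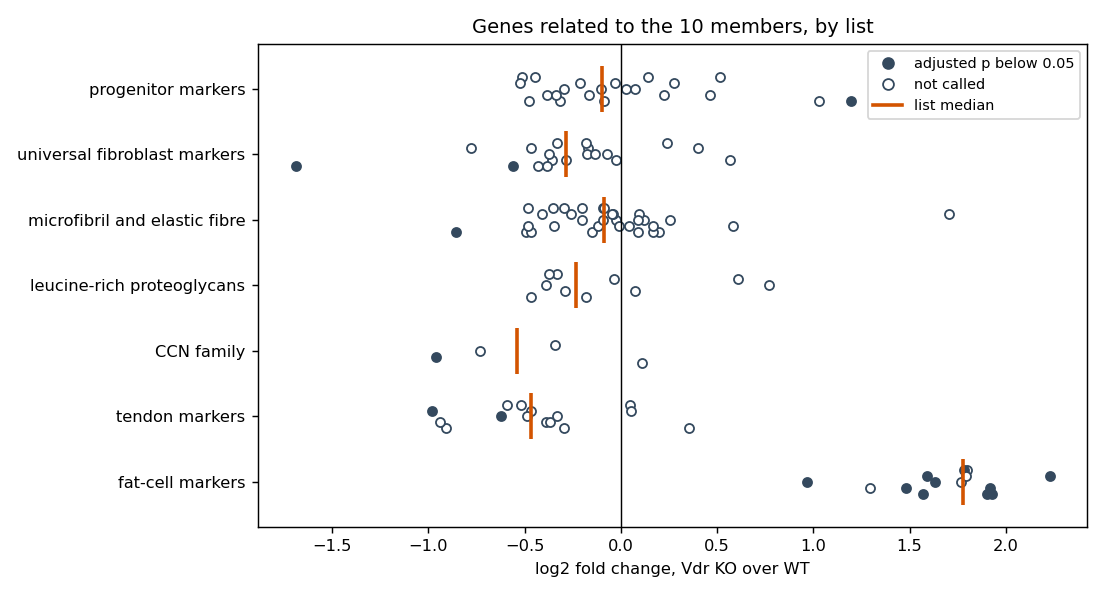
Log2 fold change, knockout over WT (horizontal axis), of each tested gene in 7 lists, with filled points for an edgeR adjusted p below 0.05 and an orange bar at the median of the list. The fat-cell markers sit apart with a median of 1.77, while the other medians run from -0.54 (CCN family) to -0.09 (microfibril and elastic fibre genes).

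Markers of other cells moved with the genotype too, and their part in the values above was not tested. Of 14 fat-cell markers, 10 were called higher and none lower (median 1.77), and their summed level was 4932 and 4525 CPM in the knockout libraries against 1275 and 1502 CPM in WT. Among them Cfd, the protease adipsin (2142 and 1607 CPM in the knockout libraries, 380 and 420.3 CPM in WT), Cidec, Adipoq, Pck1, Adig and Retn rose with log2 fold changes from 1.63 to 2.23, and Fabp4, the second most abundant per kb, by 1.48. Of 15 tendon markers, 2 were called lower and none higher (median -0.47; Fmod, Kera and Chad also belong to the proteoglycan list), with a summed level of 810 and 546 CPM in the knockout libraries and 1005 and 841 CPM in WT. Those 2 were the matrix proteins Cilp2 (-0.98 ± 0.18) and Cilp (-0.62 ± 0.12), with edgeR adjusted p of 0.0205 and 0.026, and both calls were lost without knockout replicate 2 or WT replicate 1. The tendon median was -0.11 without knockout replicate 2, with no gene called, and -0.68 without knockout replicate 1, with 4 called lower. Cilp lost it without knockout replicate 1 as well (-0.65).

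No gene was called among 14 endothelial (median -0.14), 12 pericyte and smooth muscle (-0.05), 10 tested satellite cell (-0.11), 10 nerve sheath (0.05) or 13 muscle fibre markers (-0.09). Several of these medians moved when 1 library was left out. The satellite cell median was -0.73 without knockout replicate 1 and -0.26 without WT replicate 1, each with 1 gene called lower, and -0.04 without knockout replicate 2. The pericyte median was -0.24 without knockout replicate 1, -0.10 without WT replicate 1 and -0.14 without WT replicate 2. The most abundant pericyte genes per kb, Des (-0.37) and Rgs5 (-0.47), were lower in both knockout libraries than in either WT library. Rgs5 stood at 246 and 215 CPM in the knockout libraries and 324 and 315 CPM in WT, and DESeq2 called it lower (DESeq2 adjusted p = 0.0338). Of the 12 genes, 7 had a negative and 5 a positive log2 fold change. For nerve sheath genes the median was 0.31 when WT replicate 1 was left out and -0.07 when WT replicate 2 was, and it was 0.0071 and 0.0061 without knockout replicates 1 and 2. The muscle fibre median was -0.01 without knockout replicate 2, with 1 gene called higher, and -0.05 without WT replicate 1. The endothelial gene Cdh5, named outside the rule by which genes were taken from each list, was present in every library. It stood at 43.2 and 41.5 CPM in the knockout and 50.8 and 61.7 CPM in WT. The rule itself gave Ly6c1, described above, and Aqp1. Aqp1 stood at 200.6 and 224.8 CPM in the knockout libraries and 244.8 and 212.6 CPM in WT, with overlap. Log2 fold changes of the 14 endothelial genes ran from -0.41 to 0.28, and 11 were negative. Summed endothelial levels were 547 and 543 CPM in the knockout libraries, against 601 and 581 CPM in WT, beside the higher values of Ly6a. All 13 macrophage markers had a positive log2 fold change (median 0.29, with 0.17 without WT replicate 1 and 0.50 without WT replicate 2). In 6 both knockout libraries lay above both WT libraries, and in none below, where 23.0% and 21.7% of all tested genes did. A positive log2 fold change was found in 6526 of all 13076 tested genes. The macrophage markers summed to 445 and 458 CPM in the knockout libraries and 357 and 415.0 CPM in WT. The called one was Lyve1, a hyaluronan receptor (31.5 and 21.9 CPM in the knockout libraries, 13.3 and 14.4 CPM in WT; 0.95 ± 0.18, edgeR adjusted p = 0.0277), and this was lost without knockout replicate 1 (0.66) or WT replicate 1 (0.90). The muscle fibre genes summed to 108595 and 111598 CPM in the knockout libraries and 126031 and 115927 CPM in WT, high in every library of the labelled tissue.

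The genes nearest in pattern over the 4 libraries were sought among 6168 tested genes with a mean of at least 10 CPM and a symbol not of the Gm or Rik kind, by the root mean square difference of centred log2 CPM. For Mfap4 they were Hspa4l, a chaperone of the HSP110 family (0.08), Cdkn1c, a cell cycle inhibitor (0.14), and Ccn3 (0.19). Hspa4l stood at 8.65 and 7.16 CPM in the knockout libraries and 20.1 and 21.8 CPM in WT, and Cdkn1c at 17.3 and 14.2 CPM in the knockout libraries and 28.6 and 41.3 CPM in WT. For Ccn3 they were Hspa4l (0.15), Mfap4 (0.19) and Hspb1, a small heat shock protein (0.19). For Pdgfra they were Cavin2, a coat protein of caveolae (0.009), Nup85, of the nuclear pore (0.01), and Sdhd, a subunit of respiratory complex II (0.02). With 4 libraries many genes share any such pattern, and the measure is a description. Mfap4 and Ccn3 were both chosen for their fall in these same libraries, so nothing is read from their likeness to each other.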

How the data were processed

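The authors deposited unnormalised counts for each library, all whole numbers listed by Ensembl ID. The tools and build named in the submitters' processing notes are STAR, Trimmomatic, DESeq2 and GRCm38 (mm10). Their versions and settings, the gene annotation and the handling of strand: not given in the sources used here. Of 55573 gene IDs, 55480 matched GENCODE M21, from which symbols, coordinates and exon lengths were taken, and 93 did not. Antisense partners of the members other than Mapk7 had at most 1 or 2 counts.

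Genes were filtered with filterByExpr (minimum count 10, minimum total 15), scaled by TMM and fitted with edgeR 4.0.16 (glmQLFit, robust, current method) under R 4.3.3; genotype was the sole model term. Standard errors come from the F statistic. The common biological coefficient of variation was 13.59%, and 3 counts stand for 0.143 to 0.284 CPM. Libraries of a genotype differed by more than counting noise (chi-square per degree of freedom 12.5 in the knockout and 8.04 in WT).

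The 10 members and the 16 lists (223 symbols) were chosen with earlier results of these data known. Named are all members, in each list the called genes (up to 6) and the 2 most abundant per kb, and the 3 genes nearest in pattern to Mfap4, Ccn3 and Pdgfra; some muscle, nerve and satellite cell genes found so are summarised only, and the result of 1 gene is not reported here. Alternatives were RLE scaling, DESeq2 1.42.0, other filters, leaving out abundant or sex-linked genes, a replicate block, and leaving out each library.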

Additional observations from a re-analysis of the deposited data

How the results depend on the processing

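Mfap4 and Ccn3 kept a negative log2 fold change under all 11 alternatives (-1.55 to -1.19 and -1.50 to -1.34). Because their fall in these same libraries chose them, these values and their calls below are a description with no test. Without the filter on low counts 476 genes were called, 121 lower and 355 higher, against 265, 54 and 211, and Pi16 joined the called members. Leaving out 1 library gave 216 to 332 calls, 39 to 90 lower and 177 to 262 higher, and 2 to 4 members called lower. DESeq2 called 302 genes. The labels do not say whether the replicate numbers pair the libraries. The correlation of deviations was 0.039, which with 2 libraries a genotype cannot settle it. With the replicate number as a block 346 genes and the same 2 members were called. When 1 library was left out, signs changed for Fbn1 (-1.30 to 0.060), Dcn (-0.24 to 0.14), Dpt (-0.11 to 0.16), Fbln2 (-0.16 to 0.091), Ogn (-0.26 to 0.34), Ccn1 (-0.31 to 0.49), Pdgfb (-0.34 to 0.24), Col3a1 (-0.027 to 0.55), Ly6c1 (-0.17 to 0.36), Aqp1 (-0.21 to 0.0026), Lyz2 (-0.082 to 0.12) and Pmp22 (-0.0015 to 0.023), none of them called with all libraries. The cause was not tested. With 2 libraries a genotype, depth and number limit what can be called: the standard errors of the members ran from 0.12 to 0.62.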

Other observations

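The knockout libraries also differed from each other in matrix genes other than Fbn1, in both directions. Those given here were named after their values were seen. Col5a3, a fibrillar collagen chain, stood at 43.1 and 137 CPM in knockout replicates 1 and 2 and at 81.5 and 97.7 CPM in WT. Col15a1, a basement membrane collagen, stood at 44.6 and 90.5 CPM in the knockout libraries and at 83.2 and 108.5 CPM in WT. Emilin2, of elastic fibres, stood at 12.5 and 23.4 CPM in the knockout libraries and at 20.8 and 24.2 CPM in WT, and Thy1, a fibroblast surface protein, at 8.32 and 15.4 CPM in the knockout libraries and 14.6 and 17.8 CPM in WT. In each of these 4 the second knockout library lay near or within the range of WT, or, for Col5a3, above it. Other matrix genes were higher in knockout replicate 1. Kera, the proteoglycan keratocan, stood at 39.4 and 18.6 CPM in knockout replicates 1 and 2 and at 40.7 and 40.5 CPM in WT. Chad, chondroadherin, stood at 15.5 and 7.25 CPM in the knockout libraries and at 18.3 and 12.4 CPM in WT, and Omd, osteomodulin, at 9.51 and 2.56 CPM in the knockout libraries and 4.93 and 2.65 CPM in WT. For Kera and Chad knockout replicate 2 lay furthest below WT.

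The clock genes Nr1d1 and Dbp, whose levels are known to swing over the day, differed between the same libraries as well. Nr1d1 stood at 5.85 and 49.9 CPM in knockout replicates 1 and 2 and at 42.6 and 43.2 CPM in WT. Dbp stood at 19.5 and 60.1 CPM in the knockout libraries and at 71.0 and 69.1 CPM in WT. The labels give no hour of sampling, and the part of these differences in the value of Fbn1 was not tested.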
